A study of Mus musculus with 24 samples.

Results

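Of the 98240 regions with open chromatin at any time in epidermal stem cells (EpdSCs) of SOX9-expressing mouse skin, 2818 (2.87%, 95% Wilson interval 2.77 to 2.97%) were open at weeks 2 and 6 (W2 and W6) only. They were chosen by measured values, as regions with an ATAC-seq peak in the W2 and W6 lists and none in the lists of D0, W1 and W12, so that their opening between W1 and W2 and their loss between W6 and W12 are how they were selected and not results. ATAC-seq reads open chromatin through the sites at which the Tn5 transposase can insert adapters. The study sampled male CD1 mice carrying K14rtTA and TRE-myc-Sox9, in which the keratin 14 promoter restricts the doxycycline (DOX)-dependent activator to the basal layer and DOX switches on MYC-tagged SOX9. All 5 in vivo groups carried both transgenes, and D0 was taken before DOX. By the labels the mice were at postnatal day 21 when sampled before DOX, and at days 28, 35 and 63 when sampled after 1, 2 and 6 weeks. For W12, neonatal skin of that genotype had been grafted on immunocompromised Nude female hosts and was induced once healed, so that for the loss of these regions by W12 time and tissue source cannot be told apart. Cells were sorted as high for CD49f and Ly6A and negative for CD34 and for CD31, CD45, CD117 and CD140a, with several mice pooled per replicate. The 7 culture groups were EpdSCs with Krt14-rtTA left without DOX (noDOX) or given DOX at 1 µg per ml to express wild-type SOX9 (WT-SOX9), a form lacking the HMG domain that binds DNA (ΔHMG-SOX9), a form lacking the transactivation domain (ΔTA-SOX9), AFOS, SOX9 with AFOS, or SOX9 with ARID1a. By the study's methods lentivirus carried the SOX9 forms, and likewise AFOS or ARID1a, the latter into cells that held or lacked the Sox9 transgene as the arm required. The noDOX list belonged to the WT-SOX9 cells alone.

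SOX9 is a transcription factor of hair follicle stem cells that adult EpdSCs normally keep silent. It is known as a pioneer factor, a protein that can bind its short DNA element on closed, nucleosome-wrapped chromatin, after which the chromatin opens. Keratinocyte enhancers are otherwise occupied largely by AP1, the dimer of FOS and JUN proteins, together with GATA3, RUNX and TP63 factors. AFOS is a dominant-negative FOS that binds JUN partners and keeps them off DNA, and ARID1a is a subunit of the SWI/SNF complex, which moves nucleosomes.

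The strongest of these regions are shown first, to give examples of the SOX and AP1 elements counted below, which not all of them hold. The 200 bp around the W6 summit were read from GRCm38 (plus strand, 5′ to 3′) for the 8 strongest regions, and the 5 of them with a SOX or AP1 match are printed. Capitals mark matches on either strand, and lower case does not mark repeats. The repeat content of single windows is not given, so a match shown here may lie in a repeat. The SOX letters sought were ACAATAG and, apart from it, ACAATGG, each also as its reverse complement. The AP1 letters were TGACTCA with its reverse complement TGAGTCA. The GATA letters were AGATAA and the RUNX letters TGTGGT, each also as its reverse complement. A match describes the letters and is no evidence of binding.
Glra2 region, chrX:165168390-165168589: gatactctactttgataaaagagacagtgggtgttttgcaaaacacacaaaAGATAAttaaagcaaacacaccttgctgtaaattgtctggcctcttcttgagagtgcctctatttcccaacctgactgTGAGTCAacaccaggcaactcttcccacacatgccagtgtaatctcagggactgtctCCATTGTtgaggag
Pip region, chr6:41845895-41846094: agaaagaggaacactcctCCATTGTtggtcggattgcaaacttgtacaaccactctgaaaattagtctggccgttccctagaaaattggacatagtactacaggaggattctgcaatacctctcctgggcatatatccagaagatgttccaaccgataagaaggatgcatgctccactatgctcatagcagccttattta
Spp1 region, chr5:104442971-104443170: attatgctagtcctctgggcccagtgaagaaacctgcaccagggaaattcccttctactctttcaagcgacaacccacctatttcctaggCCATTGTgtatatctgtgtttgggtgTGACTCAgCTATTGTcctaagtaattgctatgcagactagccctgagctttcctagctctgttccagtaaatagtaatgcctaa
Ppp4r2 region, chr6:100896912-100897111: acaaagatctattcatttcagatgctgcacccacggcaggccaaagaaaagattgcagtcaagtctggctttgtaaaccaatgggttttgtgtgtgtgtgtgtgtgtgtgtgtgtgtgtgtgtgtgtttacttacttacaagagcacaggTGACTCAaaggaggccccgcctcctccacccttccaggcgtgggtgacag
Borcs5 region, chr6:134680684-134680883: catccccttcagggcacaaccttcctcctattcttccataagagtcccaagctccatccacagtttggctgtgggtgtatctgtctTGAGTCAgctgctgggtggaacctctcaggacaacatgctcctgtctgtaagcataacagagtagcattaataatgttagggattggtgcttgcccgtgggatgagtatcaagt

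Counting from the first printed base, the Glra2 window held a SOX match at position 187, an AP1 match at 130 and a GATA match at 52. The Spp1 window held SOX matches at positions 91 and 125 on either side of an AP1 match at 117. The Pip window had a SOX match at position 19, and the Ppp4r2 and Borcs5 windows each had an AP1 match, at positions 151 and 87. In all, 3 of the 8 windows held SOX, 4 held AP1, 1 held GATA and 0 held RUNX letters. The windows near Atp2b1, Cttnbp2 and Grip2 held none of these letters.

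The region with the highest score in common to W2 and W6 lay in an intron of Glra2, which encodes a glycine receptor subunit (chrX:165168293-165168790, GRCm38). Its peak score was 17.4 at W2 and 21.3 at W6, on the authors' scale on which the lowest listed peak has 3. Its fold enrichment over local background was 13.9 at W2 and 15.8 at W6. The next regions lay between genes, 72167 bp upstream of Atp2b1 (a plasma membrane calcium pump, chr10:98842701-98843269, scores 15.1 and 15.6 at W2 and W6) and 87347 bp upstream of Cttnbp2 (a cortactin-binding protein, chr6:18601891-18602444, 14.7 and 15.5). A region 1538 bp upstream of Pip, the gene of a secreted prolactin-induced protein, scored 14.7 at W2 and 21.6 at W6 (chr6:41845705-41846289), the highest W6 score of all 2818. It was followed by a region 63432 bp downstream of the Ppp4r2 start (a phosphatase subunit gene, chr6:100896816-100897292, scores 15.2 and 13.5) and an intron of Borcs5 (a lysosome positioning factor, chr6:134680563-134681002, 13.1 and 14.8). The remaining 4 of the 10 strongest lay in an intron of Grip2 (15.9 and 13.0), 6850 bp downstream of the start of Spp1, which encodes the matrix protein osteopontin (12.6 and 14.4), in an intron of Met, the hepatocyte growth factor receptor (13.5 and 12.1), and in an intron of Qk, an RNA-binding protein gene (12 and 13.4). Within these 10 regions the score was higher at W6 in 7 and higher at W2 in 3. No list had replicates, so a difference between the W2 and W6 scores has no replicate check.

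**Figure D1:**
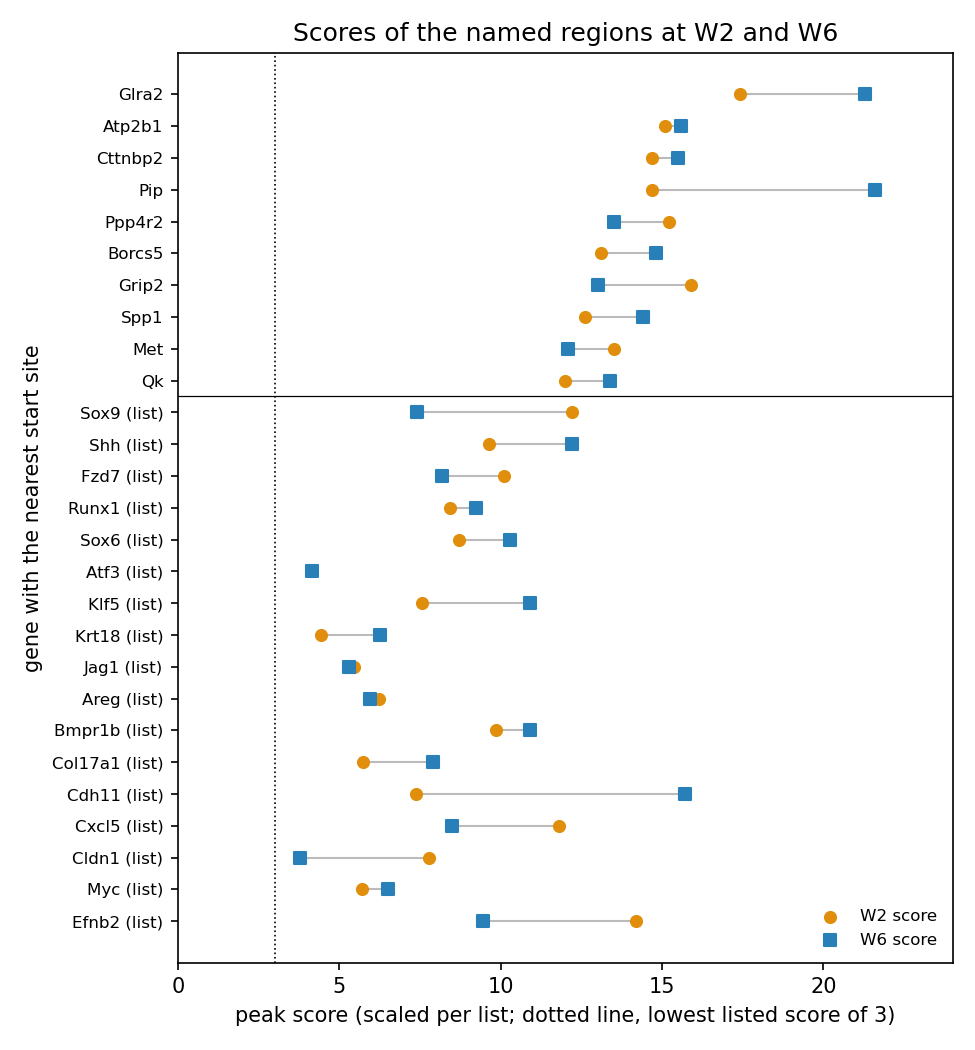
Peak score (horizontal axis, authors' units) at W2 (circles) and W6 (squares) of the 10 strongest regions (above the line) and of the strongest region of each of 17 gene lists (below the line, named by the gene with the nearest start site). The dotted line is the lowest listed score of 3. The 10 strongest sit between 12 and 21.6, whereas the Atf3 region (4.11 and 4.15, symbols overlapping) sits near the line.

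Of these 10 regions, 6 lay on chromosome 6, at separate loci. Chromosome 6 held 7 of the 41 regions (17.1%, 8.53 to 31.3%) with both scores at 10 or more, 18 of the 142 (12.7%, 8.17 to 19.1%) with both at 8 or more and 185 of all 2818 (6.56%), against 5.40% of all in vivo regions. In the kept class described below, 113 of the 1938 regions with both scores at 10 or more lay there (5.83%, 4.87 to 6.96%). At regions present at all 5 times, the median log2 score ratio of W6 to W12 was -0.01 on chromosome 6 and -0.01 over all chromosomes, and that of W2 to W1 was -0.07 against -0.15. The X chromosome held 91 of the 2818 regions (3.23%) against 2.04% of all in vivo regions. Its 776 regions present at all 5 times had median log2 score ratios of 0.05 for W2 to W1 and 0.06 for W6 to W12, against -0.15 and -0.01 over all chromosomes, and the part of this shift in the count was not tested.

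Most of the regions were weak. The lower of the W2 and W6 scores had a median of 4.19 (quartiles 3.54 and 5.26, highest 17.4), and 1303 of the 2818 (46.2%) were under 4. In 41 regions (1.45%) both scores reached 10. The regions gained by W2 and kept to W12, numbering 7854, had a median lower score of 6.35, and 24.7% of them reached 10. The median score was 4.94 at W2 and 4.96 at W6 in the W2 and W6 regions, against 4.39 in the 2531 regions open at W2 only and 3.92 in the 7954 open at W6 only. The median width was 391 bp, against 535 bp in the kept class. The W2 and W6 summits lay a median of 47.0 bp apart, and within 100 bp in 2236 regions (79.3%). The median log2 ratio of W6 to W2 score was -0.03 (quartiles -0.46 and 0.38, and a median of 0.12 with lists shortened to equal length), against 0.30 in the kept class and -0.06 in all 54120 regions with a peak at W2 and W6.

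**Figure D2:**
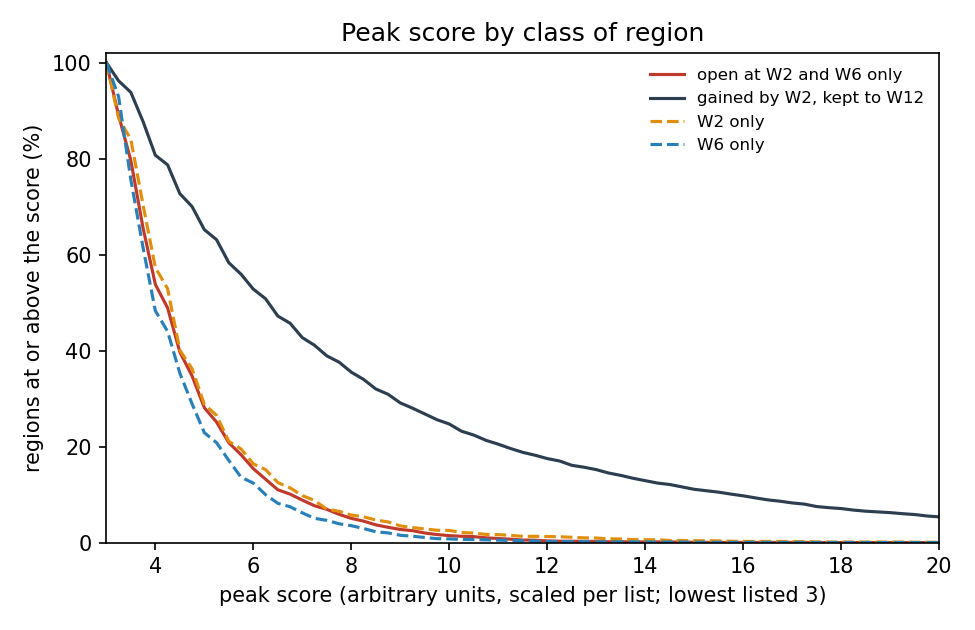
Share of regions (vertical axis, %) at or above each peak score (horizontal axis, authors' units) by class. The curve uses the lower of the W2 and W6 scores for the regions open at W2 and W6 only and for those gained by W2 and kept, and the single score for the W2-only and W6-only classes. The curve of the W2 and W6 regions lies with the single-time classes and falls to 28.1% at a score of 5, where the kept class is at 65.2%.

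Membership rested on peaks near the score minimum. The 3 weakest regions inside the rule had W6 scores of 3.0008 (near Trim69), 3.0013 (near Adgra1) and 3.0041 (near Esd). The 3 nearest outside it had W12 scores of 3.0030 (near Pald1), 3.0030 (near Mettl7b) and 3.0046 (near Tle3). Outside by a single peak were 7854 regions with a W12 peak, 481 with a W1 peak and 316 with a D0 peak, and that peak was under 3.5 in 8.54%, 21% and 39.9% of them. The same score stood for unequal evidence, as the weakest W2 and W6 peaks had deposited −log10 q-values of 4.21 and 5.74, whereas none under 14.5, 9.37 and 10.1 was listed for D0, W1 and W12. A peak of D0, W1 or W12 lay within 250 bp of 159 regions (5.64%) and within 1000 bp of 648 (23.0%). With a score of at least 5 in all lists the rule chose 2571 regions, and these overlapped 28.1% of the 2818 and made up 30.8% of the new set. With lists shortened to the same number of peaks it chose 2123, which overlapped 41.2% of the 2818. With a common −log10 q minimum of 14.5 it chose 476, and these overlapped 211 (7.49%). The median −log10 q of the 2818 regions was 8.07 at W2 and 10.6 at W6, under that minimum. These alternatives only remove peaks, so a region left the set only when its own W2 or W6 peak was removed. The losses therefore reflect weak W2 or W6 peaks and say nothing of opening at D0, W1 or W12. A peak confined to the last Sox9 exon, as the intronless transgene would give, was listed at W2, W6 and W12 with scores of 15.1, 9.22 and 8.84 and not in the list labelled W1. It was also listed at D0, before DOX, with 13.5, so that the peak did not follow induction and does not check the labels.

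To ask how the sequence of these regions compared with that of similar ones, consensus letters were counted in the central 200 bp of 2817 regions (1 lay on unplaced sequence). SOX letters were found in 354 (12.6%, 11.4 to 13.8%), against 12.2% (11.5 to 12.9%) of the kept class, 9.72% of W2-only, 9.20% of W6-only and 5.33% of all in vivo regions. AP1 letters were found in 270 (9.58%, 8.55 to 10.7%), against 26.9% (25.9 to 27.8%) of the kept class, 9.41% of W2-only, 18.9% of W6-only and 19.6% of all in vivo regions. The SOX share of the W2 and W6 regions thus lay within the interval of the kept class, and the AP1 share far below it. With a score of at least 5 the SOX share was 12.9% (11.7 to 14.3%), against a kept interval of 11.2 to 12.8%. With lists shortened to the same number of peaks it was 14.4% (13.0 to 16.0%) against 12.3 to 14.1%. With a common −log10 q minimum it was 19.1% (15.8 to 22.9%) against 13.8 to 16.5%. Each of these shares lay above the kept interval, but the intervals of both classes overlapped each time. No change of place with the rule is therefore read from them. GATA letters stood at 11.4% (10.2 to 12.6%), against 7.92% in the kept class, 14.4% of W2-only, 7.49% of W6-only and 10.5% of all regions. Searched over the full regions, which are wider in the kept class, the order turned for GATA (22.5% against 24.5%) and for SOX (20.1% against 23.6%). RUNX letters stood at 14.3% (13.1 to 15.6%), against 19.0%, 12.1%, 18.3% and 14.9% for the kept, W2-only, W6-only and all in vivo regions. Intervals cover counting error only, regions are not replicates, and no test of these differences was run. Median GC content was 49.0%, against 48.5% in the kept class, and interspersed or simple repeats made up a mean of 11.1% against 9.78% of the window.

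**Figure D3:**
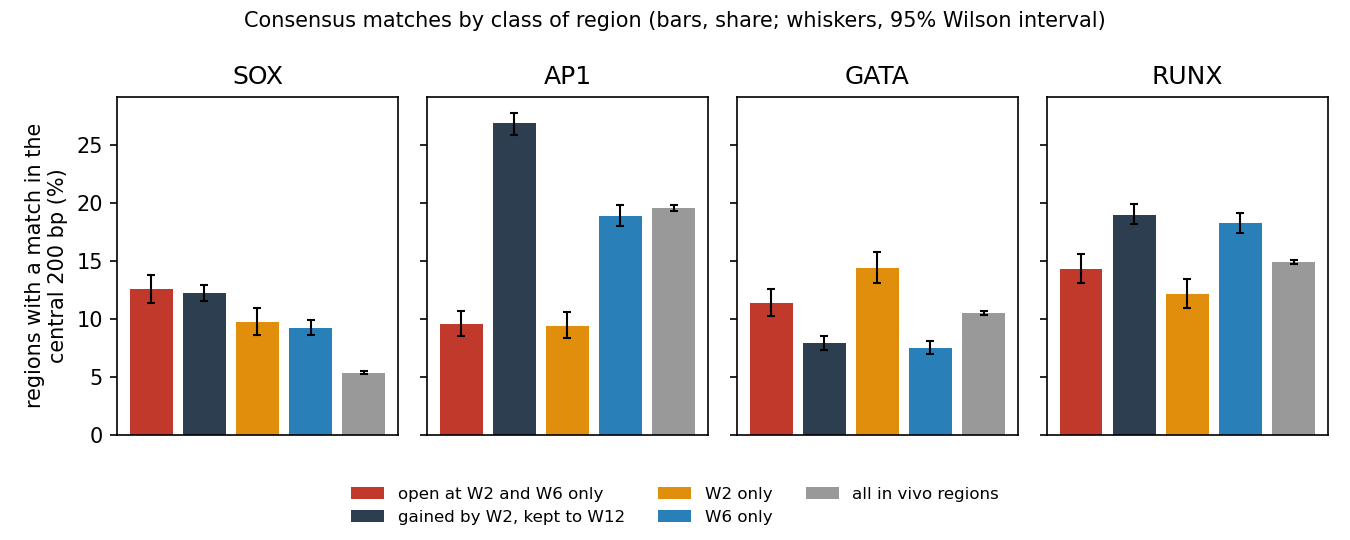
Share of regions (vertical axis, %) with a SOX, AP1, GATA or RUNX match in the central 200 bp, by class, with bars for shares and whiskers for 95% Wilson intervals. The regions open at W2 and W6 only have a SOX share of 12.6%, near the 12.2% of the kept regions, and an AP1 share of 9.58%, near the 9.41% of the W2-only regions.

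Of the other letters searched, those of TEAD (GGAATG or CATTCC), the element of the factors that partner YAP, were found in 15.8% of the W2 and W6 regions, 15.9% of the kept class, 20.2% of W2-only and 13.5% of W6-only regions. ETS letters (CCGGAAG or CAGGAAG and complements) were at 10.9% and 11.2% in the W2 and W6 regions and the kept class, FOX letters (TGTTTAC or GTAAACA) at 3.62% and 3.65%, and LEF/TCF letters (CTTTGAA or CTTTGAT and complements), the element of the WNT effectors, at 7.77% and 7.56%. CEBP letters (TTGCNNAA or TTNNGCAA) were at 14.6% and 13.1%, KLF/SP letters (GGGCGG or GGGTGG and complements) at 28.5% and 22.7%, and TBX letters (AGGTGTGA or TCACACCT) at 1.85% and 1.39%. Over all in vivo regions these shares were 13.8% for TEAD, 12% for ETS, 2.97% for FOX, 6.64% for LEF/TCF, 10% for CEBP, 29.6% for KLF/SP and 1.30% for TBX.

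The classes differ in peak score, and the shares were therefore set side by side at like W6 score. With a W6 score of 3 to 4, SOX letters were found in 8.71% (6.95 to 10.9%) of the W2 and W6 regions, with 4 to 6 in 11.8%, with 6 to 9 in 14.9%, and with 9 and above in 22.2% (17.5 to 27.8%, 55 of 248 regions). The kept class went from 9.77% in the lowest of these bins to 14% (13.0 to 15.1%) in the highest, and the W6-only class from 8.20% to 18.2% (12.3 to 26.0%), an interval that overlaps that of the W2 and W6 regions. AP1 letters were found in 8.08%, 10.2%, 9.67% and 11.7% of the W2 and W6 regions from the lowest to the highest bin. The kept class had 21.9%, 24.8%, 25.6% and 28.5%, and the W6-only class 18.1%, 19.6%, 19.6% and 23.1%. In no bin did the AP1 interval of the W2 and W6 regions overlap that of the kept class. Binned by W2 score, the AP1 share of regions with 9 and above was 7.0% (4.79 to 10.1%) against 21.5% (20 to 23.0%) in the kept class, and the SOX share was 18.5% (14.8 to 22.8%) against 15.8% (14.5 to 17.2%). Among the 142 regions with both scores at 8 or more, 40 (28.2%, 21.4 to 36.1%) held SOX letters.

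**Figure D4:**
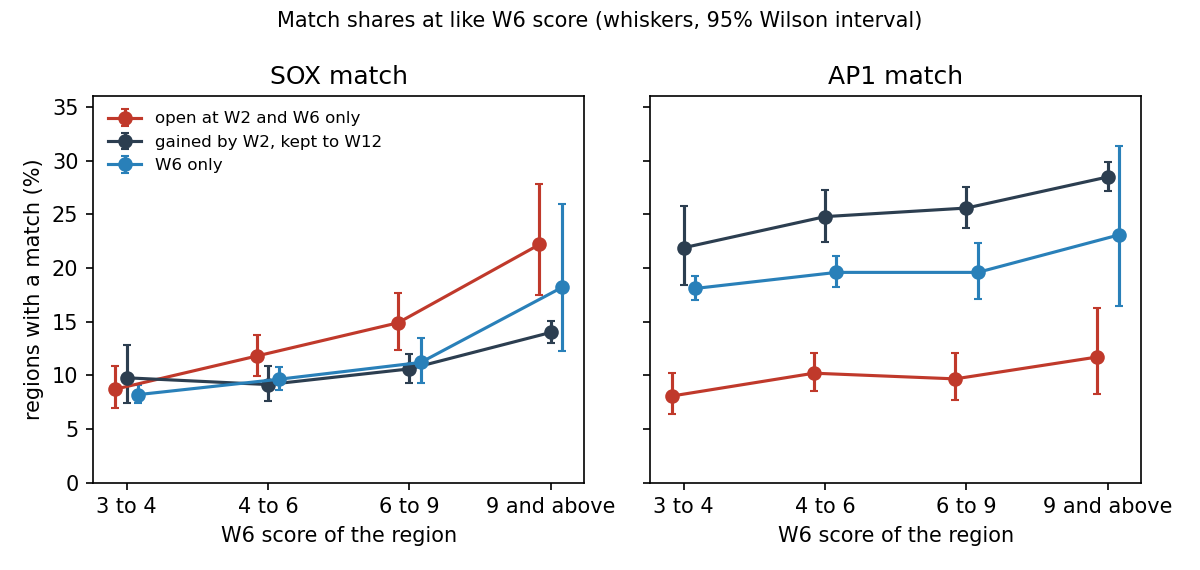
Share of regions (vertical axis, %) with a SOX (left) or AP1 (right) match by W6 score bin (horizontal axis), with points for shares and whiskers for 95% Wilson intervals. The AP1 share of the regions open at W2 and W6 only is 8.08 to 11.7% across the bins, below the 21.9 to 28.5% of the kept regions, and their SOX share goes from 8.71% to 22.2%.

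SOX letters were densest near the summit. Within 25 bp of the W6 summit 4.30% of the W2 and W6 regions had a SOX match, and between 75 and 100 bp 2.70% did, against 3.77% and 3.07% in the kept class. AP1 matches stood at 2.95% and 1.49% at these distances, and at 9.10% and 5.27% in the kept class. GATA matches were at 3.09% and 2.91%.

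To ask whether SOX9 opened the same regions outside the skin, the regions were compared with the peak lists of cultured EpdSCs, which the rule did not use. By its label the WT-SOX9 list was taken after a few days of DOX, against 2 and 6 weeks in skin. The times of the other DOX arms are not given here, so that culture and skin are not matched in time. Without DOX 378 of the 2818 regions (13.4%, 12.2 to 14.7%) had a peak, against 45.4% of all in vivo regions and 37.3% of the kept class. With WT-SOX9 611 did (21.7%, 20.2 to 23.2%), against 42.3% and 49.0%, so that both shares lay below those of all regions. The noDOX share was 20.5% for regions with in vivo scores of at least 5, and counting only culture peaks with a score of at least 5 it was 8.34% and the WT-SOX9 share 14.2%. Without these score limits, W2-only and W6-only regions had a noDOX peak in 11.7% and 14.9% and a WT-SOX9 peak in 16.1% and 17.4%. WT-SOX9 opened 361 regions, with a peak and none without DOX (12.8%, 11.6 to 14.1%), against 6.45% of all in vivo regions and 20.4% of the kept class. Of the 378 noDOX peaks 128 were not listed with WT-SOX9 (33.9%, 29.3 to 38.8%), against 21% of those of all in vivo regions, 36.1% of those of regions not present at all 5 times and 23.3% of those of the kept class. ΔHMG-SOX9, which cannot bind DNA through that domain, opened 70 regions (2.48%, 1.97 to 3.13%) against 3.22% of all in vivo regions. ΔTA-SOX9 opened 96 (3.41%, 2.80 to 4.14%) against 4.84%. A region with a noDOX peak cannot be opened, and such peaks were rarer here than among all regions. Over regions without one, a count added after seeing the data, WT-SOX9 opened 361 of 2440 (14.8%, 13.4 to 16.3%), against 11.8% of all in vivo regions and 32.5% of the kept class. On the same count ΔHMG-SOX9 opened 2.87% against 5.90% and 5.44%, and ΔTA-SOX9 3.93% against 8.88% and 9.24%. All arms were read against the same noDOX list, so that these values share their control.

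AFOS alone opened 116 regions (4.12%, 3.44 to 4.91%) against 4.73% of all in vivo regions. SOX9 with AFOS opened 402 (14.3%, 13.0 to 15.6%) against 7.16%, and SOX9 with ARID1a 254 (9.01%, 8.01 to 10.1%) against 6.10%. Over regions without a noDOX peak the share for SOX9 with AFOS was 16.5% (15.1 to 18%), against 13.1% of all in vivo regions and 23.4% of the kept class. For SOX9 with ARID1a the order turned, with 10.4% (9.26 to 11.7%) against 11.2%, within the interval, and 26.4% of the kept class. For AFOS alone it was 4.75% against 8.67% and 8.63%. A peak of any kind was present in 22.7% of the W2 and W6 regions with SOX9 and AFOS and in 21.7% with WT-SOX9. In the kept class these shares were 36.6% and 49.0%, in W2-only regions 16.4% and 16.1%, and in W6-only regions 17.2% and 17.4%. Peaks of the 3 lists with AFOS or ARID1a carry names that record fragments as input, unlike the others, so a difference in peak calling cannot be told apart from these arms. No peak in any of the 7 culture lists was present at 1735 regions (61.6%, 59.8 to 63.3%), against 32.5% of the kept class, 69.5% of W2-only, 63.1% of W6-only and 38.2% of all in vivo regions. All 7 lists had a peak at 77 (2.73%), against 24.3% of all in vivo regions and 14.1% of the kept class. The culture peaks at the regions had a median score of 6.65 with WT-SOX9, where the whole list had 9.68, and of 8.18 with SOX9 and AFOS, where it had 10.6.

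**Figure D5:**
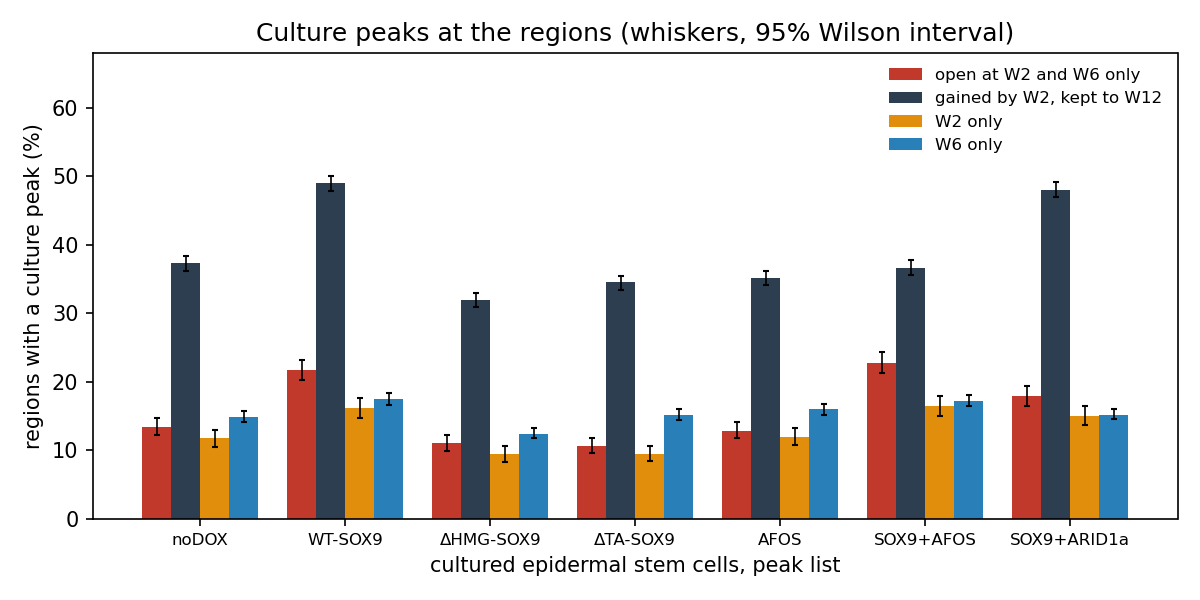
Share of regions (vertical axis, %) with a peak in each list of cultured EpdSCs (horizontal axis), by in vivo class, with bars for shares and whiskers for 95% Wilson intervals. In the regions open at W2 and W6 only the WT-SOX9 and SOX9+AFOS lists stand highest (21.7% and 22.7%). The same lists do in the W2-only (16.1% and 16.4%) and W6-only classes (17.4% and 17.2%). In the kept class WT-SOX9 and SOX9+ARID1a do (49.0% and 48.0%).

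Letters and culture peaks were related within the W2 and W6 regions. The 323 regions with SOX but no AP1 letters had a noDOX peak in 9.91% (7.11 to 13.7%), a WT-SOX9 peak in 32.2% (27.3 to 37.5%), a ΔHMG-SOX9 peak in 7.12%, a ΔTA-SOX9 peak in 4.95%, and a peak with SOX9 and AFOS in 31.6%. Of them 25.7% (21.2 to 30.7%) were opened by WT-SOX9, 25.4% by SOX9 with AFOS and 2.48% by AFOS alone. Among all in vivo regions with the same letters these shares were 18.6%, 15.6% and 3.93%, and in the kept class 39.2%, 29.2% and 3.72%. A noDOX peak was present in 29.6% and 24% of those, and a WT-SOX9 peak in 43.1% and 60.8%. A region with a noDOX peak cannot be opened, and the count over regions without one was not made by letters. The opened shares in this paragraph are therefore not like for like between the W2 and W6 regions and the other classes. The 239 regions with AP1 but no SOX letters had a noDOX peak in 22.6% (17.8 to 28.3%), a WT-SOX9 peak in 22.2%, an AFOS peak in 24.7% and a peak with SOX9 and AFOS in 11.7% (8.23 to 16.4%). Of these 8.37% were opened by WT-SOX9, 3.35% by SOX9 with AFOS and 6.28% (3.84 to 10.1%) by AFOS alone. Among all in vivo regions with AP1 but no SOX letters the opened shares were 4.30%, 1.94% and 6.73%, and in the kept class 12.1%, 3.30% and 6.08%, and a noDOX peak was present in 54.6% and 54.9%. The 2224 regions with neither had a WT-SOX9 peak in 20.1% and were opened by WT-SOX9 in 11.4%, so that 254 of the 361 opened regions held neither consensus, as did 78.9% of all 2818. With neither, WT-SOX9 opened 6.20% of all in vivo regions and 20.7% of the kept class. In all 3 classes the shares opened by WT-SOX9 and by SOX9 with AFOS were thus higher with SOX than with AP1 letters, and the share opened by AFOS alone was lower.

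The regions were distal to promoters. Within 1 kb of a transcription start site (TSS) of a protein-coding gene lay 120 (4.26%, 3.57 to 5.07%), against 3.25% of the kept class, 6.25% of W6-only and 15.2% of all in vivo regions, and the median distance to a TSS was 36231 bp. By GENCODE M21, 1391 were centred in introns (49.4%, against 49.1% of all in vivo regions), 1261 between genes (44.7% against 39.0%), 63 in untranslated regions (2.24% against 6.35%), 57 in noncoding exons and 46 in coding exons. The strongest within 1 kb of a TSS was 364 bp from a start of Apobec1, an RNA-editing enzyme gene (scores 10.5 and 9.77 at W2 and W6), followed by Rapgef5 (15.1 and 9.64), a guanine nucleotide exchange factor gene, and Sgip1 (9.0 and 9.26). Others lay 30 bp from the start of Fabp7, a fatty acid-binding protein gene (8.45 and 8.06), and at the start of Lce1f, a cornified envelope gene (6.86 and 8.06).

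The nearest start sites belonged to 2092 genes, of which 1618 had a single W2 and W6 region. Another such region lay within 50 kb of 789 (28%). Of the genes, 69 had 4 or more. Efnb2, an ephrin ligand, and Sox9 had 8 each of 76 and 103 in vivo regions nearest to them, and Adgrl2, a latrophilin receptor, had 7 of 108. Fzd7, Gata6, Gm11146, Gmds, Marcks, Mgat5 and Setbp1 had 6 each. The count grows with the number of regions assigned to a gene, so the share of a gene's regions is given as well. It was 31.6% at Fzd7 (6 of 19) and 23.1% at Gata6 (6 of 26), against 2.87% overall. At Pip all 4 in vivo regions were open at W2 and W6 only. Ephb2, the receptor of ephrin-B ligands, had 4 of 9 and Itgb8, an integrin subunit that activates latent TGF-β, had 4 of 14. Genes are named here by distance alone, and no expression was measured in these files.

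The 4 Pip regions lay within 1538 to 23196 bp of the start and scored 9.87, 4.42, 4.89 and 14.7 at W2. At W6 they scored 13.6, 6.40, 7.21 and 21.6, higher than at W2 at each region. Apart from a WT-SOX9 peak at the region farthest from the start, none had a culture peak. The 4 Ephb2 regions lay in its introns and scored 3.54 to 7.03 at W2 and 3.74 to 8.47 at W6, with no culture peak.

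At Sox9 itself the 8 regions were spread from 500117 bp upstream to 351608 bp downstream. Their W2 scores from the most upstream to the most downstream were 4.89, 3.97, 12.2, 3.54, 4.42, 7.46, 10.5 and 6.15, and the W6 scores were 11.1, 4.96, 7.42, 4.65, 9.74, 3.81, 3.76 and 6.44. The score was higher at W6 at 5 of them. None held SOX letters in its central window. The strongest at W2, 145135 bp upstream (chr11:112636887-112637290), had a culture peak with SOX9 and AFOS alone. Around Sox9 35 regions were present at all 5 times, 10 belonged to the kept class, and 20 were open at W6 only.

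Among signalling genes, Fzd7, a WNT receptor, had its 6 regions within 99042 bp upstream. They scored 3.42 to 10.5 at W2 and 3.26 to 8.19 at W6. The strongest of these (chr1:59439287-59440058) scored 10.1 and 8.19 and had no culture peak, and 2 of the 6 held SOX letters. The WNT list of 30 genes had 16 regions at 9 genes, of 346 in vivo regions (4.62%, 2.87 to 7.38%), among them 2 at Lef1 and 2 at Ctnnb1, which encodes β-catenin. At Ctnnb1 the region 39829 bp upstream scored 3.54 at W2 and 11.5 at W6. The axon guidance and migration list, which holds ephrins, semaphorins and their receptors, had 31 regions at 13 of 22 genes (4.79%, 3.40 to 6.72%). Its strongest, assigned to Efnb2 at a distance of 993347 bp, scored 14.2 at W2 and 9.45 at W6. The EGF receptor and ligand list had 12 regions of 216 (5.56%, 3.21 to 9.46%), of which 5 were at Nrg1, which encodes neuregulin, and 3 at Areg, which encodes amphiregulin. The strongest Areg region scored 6.23 and 5.96 and had peaks with WT-SOX9 and with SOX9 and AFOS. The TGF-β and BMP list had 19 of 543 (3.5%), with 4 each at Inhba and Tgfbr2, and the strongest, at the BMP receptor gene Bmpr1b, scored 9.84 and 10.9. The Hedgehog list had 6 of 213 (2.82%, 1.30 to 6.01%), and its strongest, 54254 bp upstream of the ligand gene Shh (chr5:28521192-28521827), scored 9.64 and 12.2 with no culture peak. The Notch list had 9 of 287 (3.14%), of which 3 were at Notch1, and the strongest, far upstream of the ligand gene Jag1, scored 5.46 and 5.31.

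Among transcription factor genes, the RUNX and GATA list had 18 regions at 6 of 7 genes, of 278 (6.47%, 4.13 to 10%), the highest share among lists with over 100 regions. Gata6 had 6, Gata3 5 and Runx1 4. At Gata6 the W2 scores ranged from 3.54 to 27.5, the highest W2 score of all 2818 regions, and the W6 scores from 3.92 to 8.06. At Gata3, a factor of epidermal identity, they ranged from 3.48 to 11.2 over W2 and W6. The Runx1 regions scored 3.54 to 8.43 at W2 and 3.58 to 9.24 at W6, and the one 89600 bp upstream held SOX and AP1 letters and had peaks in the 3 lists with full-length SOX9. The epidermal identity list, which shares Gata3, had 24 of 606 (3.96%, 2.68 to 5.83%) with 5 at Cebpb, 4 at Ehf and 3 at Klf4, and a single region at Trp63, the master regulator of stratified epithelia (3.56 and 3.64). The SOX family had 16 of 318 (5.03%, 3.12 to 8.02%), of which 8 were at Sox9 and 3 at Sox4. Its strongest lay in an intron of Sox6 (8.72 and 10.3). The hair follicle stem cell list had 18 of 549 (3.28%, 2.08 to 5.12%), of which 8 were again those of Sox9. The AP1 subunit genes had 2 of 198 (1.01%, 0.277 to 3.61%), at Atf3 (4.11 and 4.15) and Fosl2. Myc, the growth regulator, had 5 regions, and the strongest lay in an intron of Pvt1 (5.69 and 6.5).

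Among structural and surface genes, the epidermal differentiation list had 1 of 110 (0.909%, 0.161 to 4.97%), in an intron of the tight junction gene Cldn1 (7.79 and 3.78). The keratin list had 3 of 43 (6.98%, 2.40 to 18.6%), at Krt6a, Krt18 and Krt19. The Krt18 region scored 4.42 and 6.26 and had a peak in all 7 culture lists. The integrin and basement membrane list had 8 of 354 (2.26%, 1.15 to 4.40%), with 4 at Itgb8, and the hemidesmosome gene Col17a1 had an intronic region at 5.73 and 7.89. The cadherin and EMT factor list had 4 of 194 (2.06%, 0.805 to 5.18%), and a region assigned to Cdh11 scored 7.38 at W2 and 15.7 at W6. The cytokine list had 12 of 340 (3.53%), and its strongest, 21911 bp upstream of the chemokine gene Cxcl5, scored 11.8 and 8.50. Of the 17 lists, the interval lay above 2.87% at the RUNX and GATA, SOX, EGF, and axon guidance lists, and included it at the other 13, the WNT list reaching it at its lower end. In each of the 4 this was lost on leaving out the gene with the most regions, a count added after seeing the data. Without Gata6 the RUNX and GATA list had 12 of 252 (4.76%, 2.74 to 8.14%), without Sox9 the SOX list 8 of 215 (3.72%, 1.90 to 7.17%), without Nrg1 the EGF list 7 of 171 (4.09%, 2.00 to 8.21%) and without Efnb2 the axon guidance list 23 of 571 (4.03%, 2.70 to 5.97%), and all 4 intervals then included 2.87%. By the share alone, intervals aside, the W2 and W6 regions were above 2.87% at 12 of the 17 lists. By the same count the kept class was above its share of 7.99% at 11 of the 17, these 4 among them. It had 14% at RUNX and GATA, 12.7% at epidermal differentiation, 12.1% at axon guidance, 10.8% at cadherin and EMT factor, 9.26% at EGF and 9.12% at SOX genes. Of the strongest regions of the 17 lists, 0 held SOX letters and 1 held AP1 letters in the central window. No list was tested against others.

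The 5 in vivo lists had peaks within 1 kb of the start of 7 or 8 of 8 basal epidermal marker genes, among them Krt5 and Krt14, and of 6 to 8 of 8 hair follicle stem cell markers. Of 8 immune markers 0 or 1 had such a peak, of 6 fibroblast markers 2 and of 6 melanocyte markers 2, in every list. Of 5 endothelial markers 0 had a peak at D0, W1 and W12 and 1 at W2 and W6. That gene was Kdr, the VEGF receptor 2 gene, whose promoter peak (chr5:75978105-75978802) is itself among the 2818 regions, with scores of 5.85 and 6.28. Pecam1, Cdh5, Tie1 and Emcn had none in any list, and the Kdr region also had peaks in the noDOX, WT-SOX9, SOX9+AFOS and SOX9+ARID1a culture lists. The summed promoter score of the basal markers was 124.6, 130.7, 99.7, 88.8 and 108.4 from D0 to W12. That of the differentiated epidermis markers, of which 3 of 6 had a peak in every list, was 26.1, 41.2, 51.9, 36.2 and 40.1. Among these Ivl, the gene of the cornified envelope protein involucrin, had promoter scores of 6.51, 5.80, 26.4, 19.4 and 12.1, highest at W2 and W6. Krt10 and Sbsn went the other way, highest at W1 (10.9 and 24.5) and lowest at W6 (3.23 and 13.6). The high sum at W2 was thus not shared by all genes with a peak. Krt1, Lor and Flg had no peak in any list. The part of either list in the results above was not tested.

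By the same rules, 18.1% of all in vivo regions were gained from W1 to W2 and 14.3% were lost from W6 to W12, and since the 2818 regions were selected on these lists nothing is read from that.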

How the data were processed

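ATAC-seq was carried out by the authors on 24 samples in 12 groups of 2 replicates. Per the labels and the study's methods, reads were aligned to GRCm38 with Bowtie2 2.2.9 in the PEPATAC pipeline, with Picard 2.3.0, SAMtools 1.9 and deepTools 2.5.4 also listed, and peaks were called with MACS2 2.1.1 on the merged replicates. Each group therefore gave 1 deposited list, and read depth is not given in the sources used here. The deposited score, taken from its totals to be scaled per list, has a minimum of 3. The in vivo files also hold the authors' fold enrichment ratio, −log10 q-value and summit position. Here peaks of the 5 in vivo lists were merged at 1 bp overlap (Python 3.11.15, NumPy 2.4.6, pysam 0.24.0, matplotlib 3.10.9). Region score is that of its highest peak in a list. Culture peaks counted at 1 bp overlap. Letters were searched on either strand, and start sites came from GENCODE M21. Shares carry 95% Wilson intervals. Merging, lookups and searches were tested on simulated data. Named regions were the 10 with the highest lower score of W2 and W6, the strongest per gene list, those at the score limit, and genes with 4 or more regions. Of genes with 4 or 5, those beside the named lists or of high share were singled out after their values were seen. The members and lists were chosen with earlier results of these data known. Alternatives were other score, list size, q-value, merging and distance rules, windows, culture thresholds and, added after seeing the data, rules without W1 or W12, opened shares over regions without a noDOX peak and gene lists without their leading gene.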

Additional observations from a re-analysis of the deposited data

How the results depend on the processing

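No paired analysis was possible because the authors merged the replicates of each group into 1 peak list, and for the same reason no replicate could be left out. The number of regions was 2818 and ranged from 2123 to 3299, except that a common −log10 q minimum gave 476 and the added rule without the W12 list 10672. A common −log10 q minimum gave shares of 19.1% for SOX, 9.87% for GATA and 9.66% for RUNX, 2.73% near a TSS, 29.6% with a WT-SOX9 and 14.9% with a noDOX peak, and a median log2 ratio of W6 to W2 score of -0.29. Lists shortened to the same number of peaks gave 14.4% for SOX, 12.1% for AP1, 3.30% near a TSS, 27.7% for WT-SOX9 and 17.5% for noDOX, and reversed the median ratio to 0.12. A score of at least 5 gave 9.96% for GATA, 5.41% near a TSS, 29.2% for WT-SOX9 and 20.5% for noDOX. Searching the full region gave 20.1% for SOX, 14.7% for AP1, 22.5% for GATA and 27.1% for RUNX, as more bases were searched. A TSS distance of 5 kb gave 13.4%. A culture score of at least 5 gave 14.2% for WT-SOX9 and 8.34% for noDOX, and culture peaks over at least 50% of the region gave 19.9% and 11.6%. The added rule without the W1 list gave 6.0% near a TSS, 23.4% for WT-SOX9 and 15.7% for noDOX. The added rule without the W12 list, which takes in the kept class, gave 22.3% for AP1, 8.83% for GATA, 17.8% for RUNX, 3.51% near a TSS, 41.8% for WT-SOX9 and 31.0% for noDOX, and reversed the median ratio to 0.19. The cause of the moves with score, list size and q-value was not tested.

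The AP1 share stayed below that of the kept class in the score, list size and q-value alternatives (10%, 12.1% and 8.61% against 28.8%, 28.5% and 23.7%), the full region (14.7% against 40.6%) and the W6 summit window (9.23% against 29.4%). The SOX shares were 12.9%, 14.4% and 19.1% against 12%, 13.2% and 15.1%. GATA shares of the full region were 22.5% against 24.5%, so that the order seen in the central 200 bp turned. Of the regions chosen under the score, list size and q-value alternatives, 30.8%, 54.7% and 44.3% overlapped the 2818, which is 28.1%, 41.2% and 7.49% of the 2818. Weak peaks near the minimum limit every absence, and regions are not replicates of a time.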
